A study of Rattus norvegicus with 17 samples.

Results

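The T and NK cell genes are 32 names of genes that mark or equip T lymphocytes and natural killer (NK) cells, grouped here by role as T cell receptor chains, surface receptors, signalling proteins, co-stimulators, helper genes, cytotoxic and NK genes, and regulatory genes. They were taken as all probes of the array, controls aside, whose gene name equals one of these names. That gave 33 probes for 29 of the 32 names, among 41012 probes in all. A probe was tested where it lay well above background in at least 8 of the 17 rats, which held for 30 of the 33 probes and for 26 genes, among 23166 gene names tested. Cd27 and Themis are not analysed here, since no probe carries those names. The name Cd247 has no probe either, but its older name Cd3z has one, whose accession RefSeq now calls Cd247. Cd28 and Ubash3a lay well above background in 1 rat of each diet and Cd4 in 2 of each, so these 3 genes were not tested.

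The study asked how dietary calcium affects the colon of rats prone to colitis. All rats were females, carried transgenes for HLA-B27 and β2-microglobulin on the inbred strain Fisher 344, were housed singly and were 8 to 10 weeks old when the diets began. The high and low calcium rats therefore carried the same transgenes, and no rat without them was compared. A Western-type purified diet held 120 mmol calcium per kg for 8 rats (high calcium) or 30 mmol per kg for 9 rats (low calcium), the extra calcium replacing glucose. RNA from colon scrapings of each rat, labelled with Cy5, was hybridised to its own array against Cy3-labelled RNA pooled from all rats, so a value is the log2 ratio of 1 rat to that pool.

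T cells sense antigen through a receptor whose chains sit in a complex with the CD3 proteins and the zeta chain; the kinases Lck and Zap70 and the adaptor Lat carry the signal onward, and CD2, CD5, CD6, CD28 and ICOS tune it. Helper T cells carry CD4, cytotoxic T cells carry CD8 and kill with perforin and granzymes, as NK cells do, and regulatory T cells carry Foxp3 and CTLA-4. In the gut many cytotoxic T cells lie within the epithelium, and in colitis T cells of the lamina propria increase. In rats CD4 is also found on macrophages.

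Of the 26 genes tested, none differed between the diets at an adjusted p under 0.05 (limma, Benjamini-Hochberg over all probes), and 0% of all genes tested did. At an unadjusted p under 0.05 there were 6, or 23.1%, beside 9.84% of all genes and 9.6% of all probes tested. Cd7, Gzmc and Nkg7 were the 3 higher at high calcium, where the background was 4.61%, and Cd2, Cd8b and Icos the 3 lower, where it was 5.23%. With arrays centred on their median in place of loess there were 1 higher and 2 lower, and with the Cy5 channel alone 3 higher and 1 lower. Without rat 18 of the high calcium group the count was 3. The median difference over the 26 genes was -0.017 on the log2 scale, beside 0.0081 over all genes tested. Over the single genes it ran from -0.23 to 0.20. Values of the high and low calcium rats overlapped for all 26 genes, while 0.0302% of all genes tested had groups that did not overlap.

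Epithelial markers were measured in these scrapings, with all 10 tested genes of that list, Muc2, Krt20 and Cdx2 among them, well above background in every rat. T cell genes were measured too, and 25 of the 26 tested T and NK cell genes lay well above background in every rat; Gata3 did so in 5 high and 6 low calcium rats. Median Cy5 signal per array ran from 147 to 181, over a background of 43.5 to 53.5, and between 60.0% and 72.0% of probes lay well above background. The number of rats limits the precision. Rats ran on 5 slides, of which 4 held 2 rats of each diet and the fifth 1 low calcium rat.

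Receptor, surface and signalling genes tended to vary together from rat to rat, and so did cytotoxic genes. To show the sequence before the starts of such genes, the strand of the gene is given from RefSeq on rat build GRCr8 for the strongest pair of each kind, Cd3d with Zap70 and Gzma with Nkg7. Each run holds the 250 bases before the start of the gene, 5′ to 3′, with capitals marking every match to one of 4 motifs searched on both strands: AGGAAG, a core bound by ETS factors; TGTGGT, bound by RUNX factors; GGTGTGA, bound by T-box factors; and TGANTCA, bound by AP-1. Cd3d lies at chr8:54185269-54185518 on the plus strand, Zap70 at chr9:46485355-46485604 on the plus strand, Gzma at chr2:46485697-46485946 on the minus strand and Nkg7 at chr1:102981247-102981496 on the plus strand.
Cd3d: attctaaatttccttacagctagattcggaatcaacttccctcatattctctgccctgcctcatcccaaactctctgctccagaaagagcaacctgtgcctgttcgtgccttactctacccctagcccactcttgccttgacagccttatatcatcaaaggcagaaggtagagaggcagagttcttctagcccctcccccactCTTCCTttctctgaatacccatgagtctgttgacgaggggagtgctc
Zap70: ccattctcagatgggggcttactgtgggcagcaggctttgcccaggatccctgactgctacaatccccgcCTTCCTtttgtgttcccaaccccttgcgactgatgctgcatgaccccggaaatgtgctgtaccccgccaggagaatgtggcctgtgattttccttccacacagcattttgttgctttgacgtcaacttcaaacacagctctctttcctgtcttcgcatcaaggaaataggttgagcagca
Gzma: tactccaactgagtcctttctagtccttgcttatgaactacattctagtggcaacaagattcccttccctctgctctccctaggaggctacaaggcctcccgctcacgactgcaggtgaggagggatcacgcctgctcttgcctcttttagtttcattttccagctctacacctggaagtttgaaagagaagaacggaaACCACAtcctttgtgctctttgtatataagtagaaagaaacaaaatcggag
Nkg7: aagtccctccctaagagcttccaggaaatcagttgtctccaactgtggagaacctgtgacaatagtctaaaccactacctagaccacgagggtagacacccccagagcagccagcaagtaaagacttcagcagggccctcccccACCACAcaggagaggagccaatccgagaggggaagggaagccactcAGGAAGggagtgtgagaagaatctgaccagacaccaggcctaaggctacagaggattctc

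The Cd3d and Zap70 windows each held 1 match to the ETS core and none to the other motifs. Gzma held 1 RUNX match, and Nkg7 held 1 RUNX and 1 ETS match; no matches overlapped. Windows of this length were at hand for 26 of the 32 names. The ETS core was in 14 of these 26 and in 29.4% of 27457 rat promoters, the RUNX motif in 11 of 26 and in 14.1%, the T-box motif in 2 of 26 and in 3.19%, and the AP-1 motif in 2 of 26 and in 6.36%. The RUNX matches were before Cd2, Cd28, Gzma, Gzmb, Gzmc, Gzmk, Klrk1, Lat, Lck, Nkg7 and Prf1. A match of letters is a description and no evidence of binding.

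**Figure D1:**
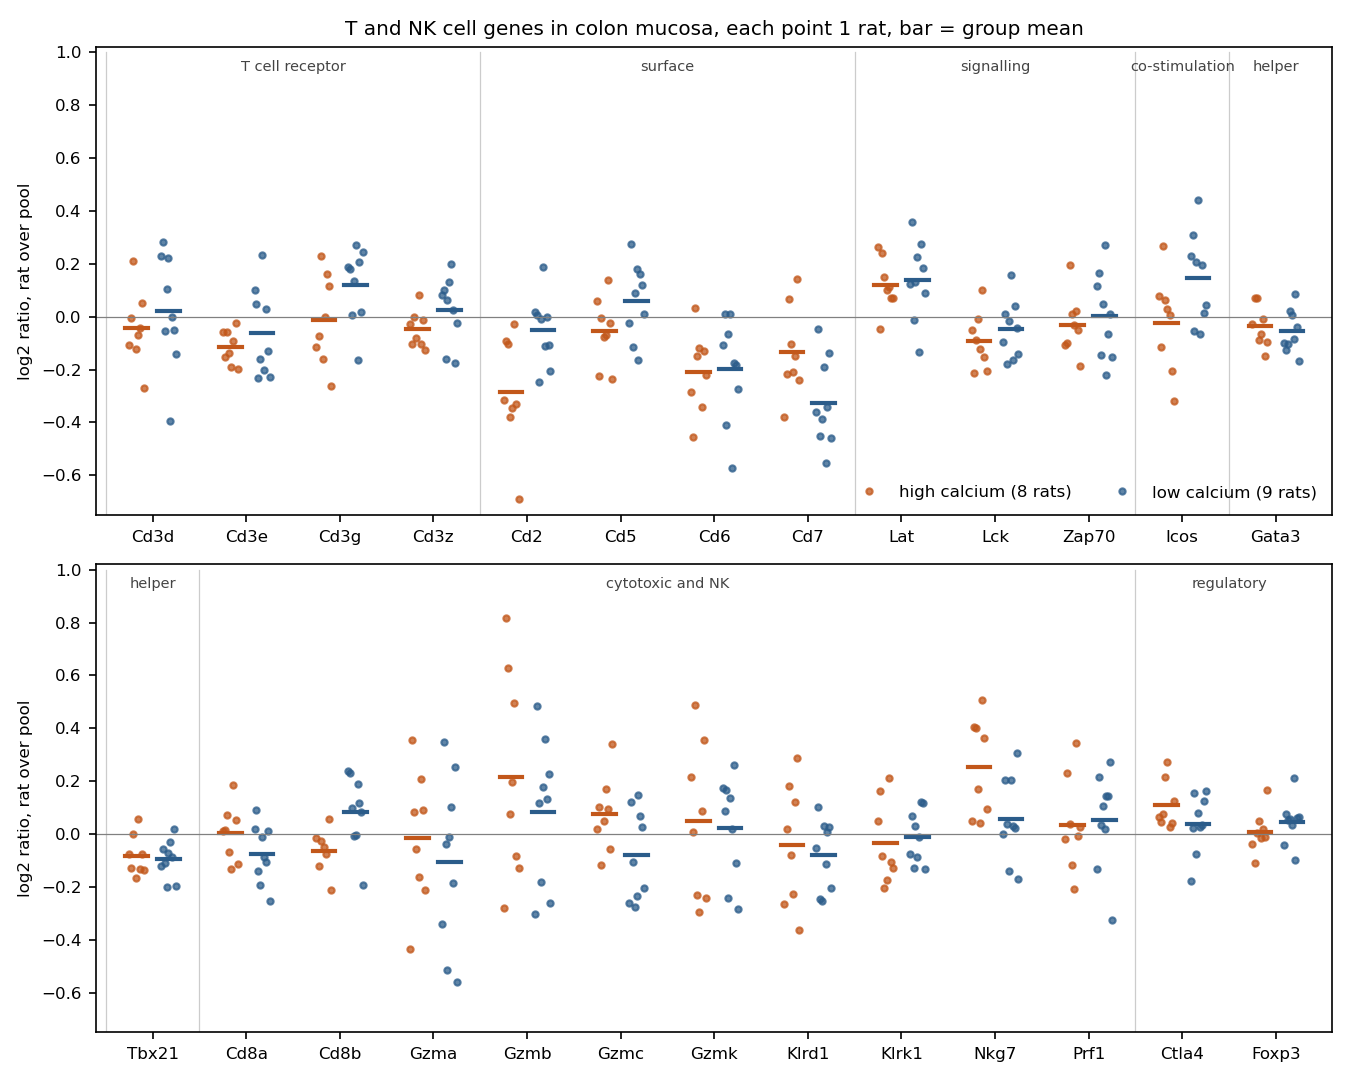
Log2 ratio of each rat to the pool (vertical axis) for the 26 tested T and NK cell genes (horizontal axis, grouped by role), with high calcium in orange and low calcium in blue, points for rats and bars for group means. Cd2 lies lower and Nkg7 higher in most high calcium rats, and the groups overlap for every gene.

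The CD3 chains and the zeta chain, which make up the signalling part of the T cell receptor in all T cells, lay a little lower on average at high calcium, each by less than the spread between rats. For Cd3g the high calcium rats ran from -0.26 to 0.23 with a median of -0.037, and the low calcium rats from -0.16 to 0.27 with a median of 0.18. Its difference of -0.13 ± 0.071 (SE) had an unadjusted p of 0.074 and an adjusted p of 0.572 by limma. The difference was -0.066 ± 0.082 for Cd3d, -0.053 ± 0.061 for Cd3e and -0.073 ± 0.052 for Cd3z, with adjusted p from 0.709 to 0.847. Of the 4 genes all 4 had a negative difference and 0 passed an unadjusted p under 0.05. Among all 23166 genes tested, 10493 had a negative difference. The 4 genes also varied together, with a median Pearson's r of 0.46 once diet means were removed. For Cd3e, the chain most used to identify T cells, every value at high calcium lay within the range at low calcium: -0.20 to -0.023 (median -0.11) against -0.23 to 0.23 (median -0.13). Its 95% confidence interval of -0.18 to 0.075 spans both directions. In whole mucosa, the number of T cells and the RNA per T cell cannot be told apart.

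Among the surface receptors, Cd2 and Cd7 differed in opposite directions. Cd2, an adhesion receptor of T and NK cells, ran from -0.69 to -0.028 (median -0.32) at high calcium and from -0.25 to 0.19 (median -0.0085) at low calcium. In 5 rats on high calcium the value was under the whole low calcium range, and in 7 of 8 it was under the low calcium mean. The means were -0.29 ± 0.21 (SD, n = 8) and -0.052 ± 0.13 (SD, n = 9). Their difference, -0.23 ± 0.078 (SE), is 1.18-fold lower at high calcium, with an unadjusted p of 0.007 and an adjusted p of 0.281 by limma, and it was the smallest p of the 26 genes. Within the 4 slides that held both diets the difference was -0.10, -0.11, -0.23 and -0.46. The Cd2 probe lies at chr2:196308539-196308598 on the minus strand of build rn3, the build of the array's own annotation.

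Cd7, a surface protein of T and NK cells and their precursors, ran from -0.38 to 0.14 (median -0.18) at high calcium and from -0.55 to -0.047 (median -0.36) at low calcium. Of the low calcium rats 4 lay below every high calcium rat. The difference was 0.19 ± 0.076 (SE), 1.14-fold, with an unadjusted p of 0.021 and an adjusted p of 0.404 by limma, and a second Cd7 probe differed by 0.16 ± 0.074. On slide 1 the first probe's difference was -0.044, against 0.40, 0.19 and 0.19 on the others. Without rat 17 of the high calcium group its unadjusted p was 0.052. Cd5 and Cd6, related receptors that damp and tune T cell signalling, differed by -0.11 ± 0.064 and -0.012 ± 0.079, and neither passed an unadjusted p under 0.05. Cd6 turned to 0.060 without the 4 rats of slide 1. Its second probe differed by -0.027 ± 0.058.

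Differences of the proximal signalling genes were within the spread between rats. Lck, the kinase bound to the co-receptors, differed by -0.044 ± 0.054 (SE), Zap70, the kinase recruited to the zeta chain, by -0.033 ± 0.066, and Lat, the adaptor that Zap70 phosphorylates, by -0.016 ± 0.061. All 3 confidence intervals reach both sides of 0, the widest from -0.17 to 0.10 for Zap70. With the Cy5 channel alone Zap70 turned to 0.030, and without slide 1 Lat turned to 0.013.

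Icos, an inducible co-stimulator of activated T cells, ran from -0.32 to 0.27 (median 0.017) at high calcium and from -0.066 to 0.44 (median 0.20) at low calcium. In 7 of 8 rats on high calcium the value was under the low calcium mean, and in 3 it was under the whole low calcium range. The difference on its brighter probe was -0.17 ± 0.079 (SE), 1.13-fold lower, with an unadjusted p of 0.043 and an adjusted p of 0.499 by limma. A second Icos probe differed by -0.27 ± 0.11, with an unadjusted p of 0.020. On slide 2 the first probe's difference was 0.090, and with slide as a block its unadjusted p was 0.067. Leaving out any one of 9 rats brought the unadjusted p above 0.05, at most to 0.106 without rat 18.

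Helper genes could be read only in part, since Cd4 was not tested. Tbx21, which encodes T-bet, the transcription factor of type 1 helper and NK cells, ran from -0.17 to 0.056 at high and from -0.20 to 0.020 at low calcium and differed by 0.012 ± 0.042 (SE). Gata3, the factor of type 2 helper cells, ran from -0.15 to 0.070 and from -0.17 to 0.087 and differed by 0.019 ± 0.044. Gata3 turned to -0.26 with the scanner software's processed signals. It lay well above background in only 5 high and 6 low calcium rats, so its difference and its spread were read partly near background. These were 2 of the 3 genes with the smallest spread between rats of one diet, at a pooled SD of 0.074 for Tbx21 and 0.080 for Gata3, against a median of 0.12 over all genes tested. The comparison of Cd8a with Cd4 per animal was not made.

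Cytotoxic and NK genes differed in both directions: of 10 tested, 7 had a positive and 3 a negative difference. Of all 23166 genes tested, 12673 had a positive difference. At an unadjusted p under 0.05, 3 of the 10 passed, 2 higher and 1 lower, beside 4.61% and 5.23% of all genes. The median difference of the 10 was 0.057. Nkg7, a granule protein of NK and cytotoxic T cells, was above 0 in all 8 high calcium rats, from 0.040 to 0.51 (median 0.27), and ran from -0.17 to 0.31 (median 0.032) at low calcium. Of the high calcium rats 4 lay above every low calcium rat and 6 of the low calcium rats below every high calcium rat. The difference was 0.20 ± 0.077 (SE), 1.15-fold, with an unadjusted p of 0.018 and an adjusted p of 0.387 by limma. Within the 4 slides with both diets it was 0.21, 0.34, 0.15 and 0.064. With median centring in place of loess its unadjusted p was 0.070. The probe lies at chr1:93892089-93892148 on the plus strand of build rn3.

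Granzymes are serine proteases that perforin lets into target cells. Gzmc ran from -0.12 to 0.34 (median 0.072) at high and from -0.28 to 0.15 (median -0.11) at low calcium. Its difference of 0.16 ± 0.072 (SE), 1.11-fold, had an unadjusted p of 0.042 and an adjusted p of 0.497 by limma, and was positive on each of the 4 slides. That unadjusted p was 0.073 with slide as a block and was above 0.05 when any one of 10 rats was left out, at most 0.104 without rat 18. Gzmb differed by 0.13 ± 0.14, Gzma by 0.089 ± 0.12 and Gzmk by 0.026 ± 0.11. Gzmk turned to -0.023 with the Cy5 channel alone, to -0.0076 with array weights and to -0.030 without slide 1. A second probe that carries the name Gzmb is described in the array annotation as a granzyme-like protein, and differed by 0.20 ± 0.14. Rats have several closely related granzyme genes on chromosome 15, where the Gzmb and Gzmc probes lie, and the probe sequences are not used here, so which of these RNAs each probe binds is uncertain.

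Perforin (Prf1), which opens the target membrane, ran from -0.21 to 0.35 at high and from -0.33 to 0.27 at low calcium and differed by -0.018 ± 0.081 (SE), turning to 0.0012 with the Cy5 channel alone. Klrd1 (CD94) and Klrk1 (NKG2D), receptors of NK and cytotoxic T cells, differed by 0.037 ± 0.082 and -0.023 ± 0.061. Klrk1 turned to 0.023, 0.010 and 0.013 without background correction, with the scanner software's processed signals and with the deposited log2 values.

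The CD8 chains went apart in sign. Cd8a, present in both forms of the CD8 co-receptor, ran from -0.13 to 0.18 (median 0.013) at high and from -0.25 to 0.090 (median -0.087) at low calcium, a difference of 0.077 ± 0.054 (SE) that did not pass (unadjusted p of 0.17). Cd8b, present only in the form that pairs both chains, ran from -0.21 to 0.058 (median -0.050) in 7 high calcium rats, the value of rat 14 being missing because its spot was marked as an outlier, and from -0.19 to 0.24 (median 0.10) at low calcium. Of the low calcium rats 6 lay above every high calcium rat. The difference was -0.15 ± 0.059, 1.11-fold lower, with an unadjusted p of 0.023 and an adjusted p of 0.413 by limma. It was negative on each of the 4 slides with both diets, from -0.084 to -0.18, but the unadjusted p was 0.072 with slide as a block, 0.13 with the Cy5 channel alone and 0.058 without rat 18. The difference between the 2 chains was not tested.

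Foxp3, the transcription factor of regulatory T cells, ran from -0.11 to 0.17 (median -0.0021) at high and from -0.10 to 0.21 (median 0.059) at low calcium and differed by -0.038 ± 0.045 (SE). Ctla4, an inhibitory receptor of regulatory and activated T cells, ran from 0.026 to 0.27 (median 0.069) at high and from -0.18 to 0.16 (median 0.034) at low calcium and differed by 0.069 ± 0.051, turning to -0.060 with the Cy5 channel alone. Neither passed an unadjusted p under 0.05. Set against Cd3e in the same rat, Foxp3 differed between the diets by 0.015 and Prf1 by 0.036. Exact two-sided permutation tests over 24310 assignments gave p = 0.868 for Foxp3 and p = 0.733 for Prf1, and an adjusted p of 0.868 for both. The sign of Foxp3 against Cd3e turned with normexp at offset 0, to -0.021.

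**Figure D2:**
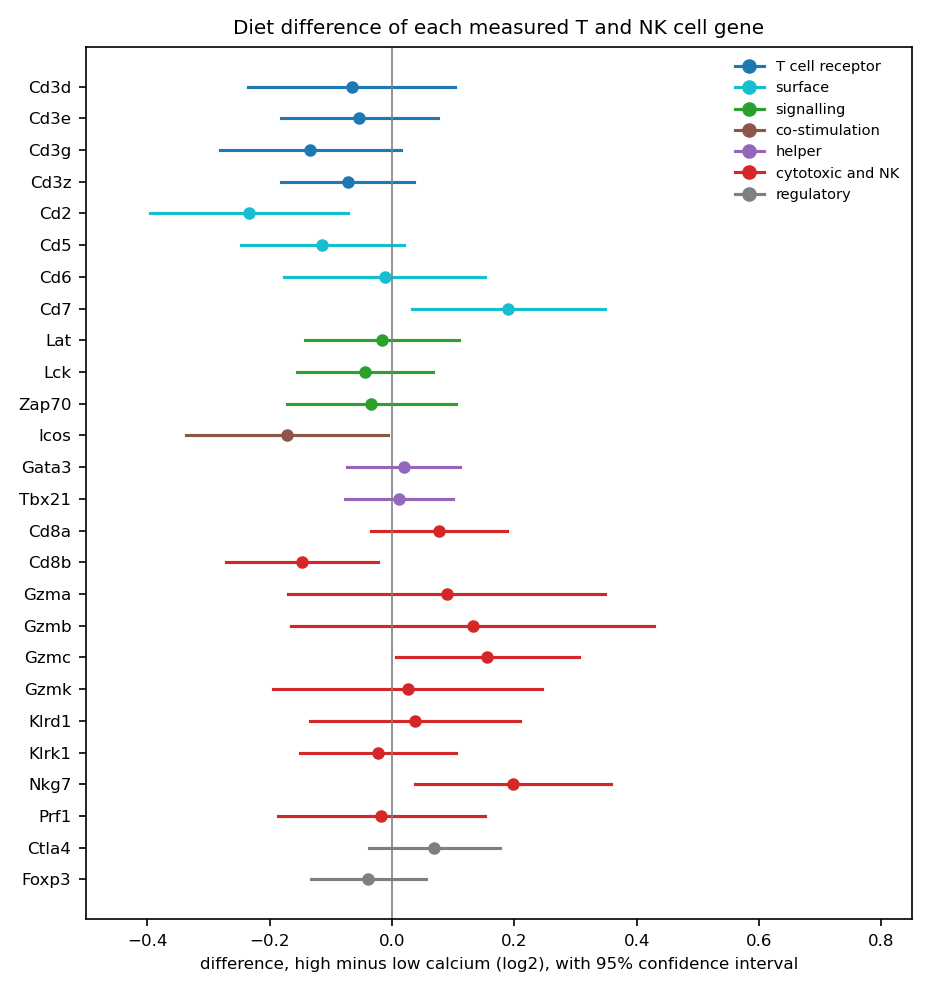
Difference between high and low calcium on the log2 scale (horizontal axis) for each of the 26 tested genes (vertical axis), as a point with its 95% confidence interval, coloured by role. Intervals of Cd2, Cd8b and Icos lie below 0 and those of Cd7, Gzmc and Nkg7 above it, before any adjustment for the number of probes tested.

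Of the 26 genes, Gzmb, Gzma and Gzmk varied most between rats of one diet, while Gzmc, at a pooled SD of 0.16, varied less than several other members of the list. The pooled within-diet SD was 0.34 for Gzmb, larger than that of 98.4% of all genes tested, 0.29 for Gzma (97.4%) and 0.24 for Gzmk (95.1%). In the high calcium group Gzmb ran from -0.28 in rat 2 to 0.82 in rat 3, and in the low calcium group from -0.30 in rat 1 to 0.49 in rat 4. Lck, Cd3z, Ctla4 and Foxp3 varied less than the median gene, with SDs from 0.082 to 0.11. Over the 26 genes the median SD was 0.15.

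Rats that were high in one T cell gene tended to be high in others. With the diet means removed, 325 pairs of the 26 genes were correlated over the 17 rats, where points share the reference pool and all genes of a rat share its array. At an adjusted permutation p under 0.05 there were 48 pairs with a positive and 0 with a negative Pearson's r. No such count was made for pairs of other genes, so these pairs are not set against a background. Receptor, surface and signalling genes had a median r of 0.59 with each other over 55 pairs, with r from 0.0034 to 0.88. Cytotoxic genes had a median of 0.47 over 45 pairs, with r from -0.28 to 0.87. Between these groups the median was 0.18 over 110 pairs, with r from -0.59 to 0.79, so the 3 ranges overlap widely. The largest r was that of Cd3d with Zap70, 0.88 (Spearman's rho 0.82); its permutation p of 1e-05 is the smallest that the permutations can give, with p = 8e-05 for rho, and adjusted values are 0.0011 and 0.0052. It was 0.85 without rats 4 and 8, the farthest from the median in Cd3d, and 0.92 over 16 rats with slide means removed as well.

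Gzma with Nkg7 had an r of 0.87 and a rho of 0.87, with permutation p = 1e-05 and p = 2e-05, adjusted 0.0011 and 0.0052. It was 0.83 without rats 2 and 16 and 0.88 with slide means removed. Gzma also followed Gzmb (r of 0.84, rho of 0.85, permutation p = 5e-05 and p = 6e-05, adjusted 0.0020 and 0.0052; 0.79 without rats 2 and 16; 0.88 with slide means removed). Cd8a with Cd8b, whose diet differences had opposite signs, had an r of 0.63 and a rho of 0.56 (permutation p = 0.0060 and p = 0.021, adjusted 0.043 and 0.093), with the missing Cd8b value set to its group mean. It was 0.60 without rats 14 and 16 and 0.62 with slide means removed. Each slide held 4 rats or fewer, too few for an r of its own.

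Negative values were weaker. Foxp3 with Cd3d had an r of -0.55 and a rho of -0.48 (permutation p = 0.023 and p = 0.055), and Cd3g with Gzmc an r of -0.59 and a rho of -0.55 (p = 0.013 and p = 0.023); neither Pearson's p passed after adjustment over the 325 pairs. Without the 2 farthest rats in the first gene they were -0.45 and -0.32, and with slide means removed -0.51 and -0.67.

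**Figure D3:**
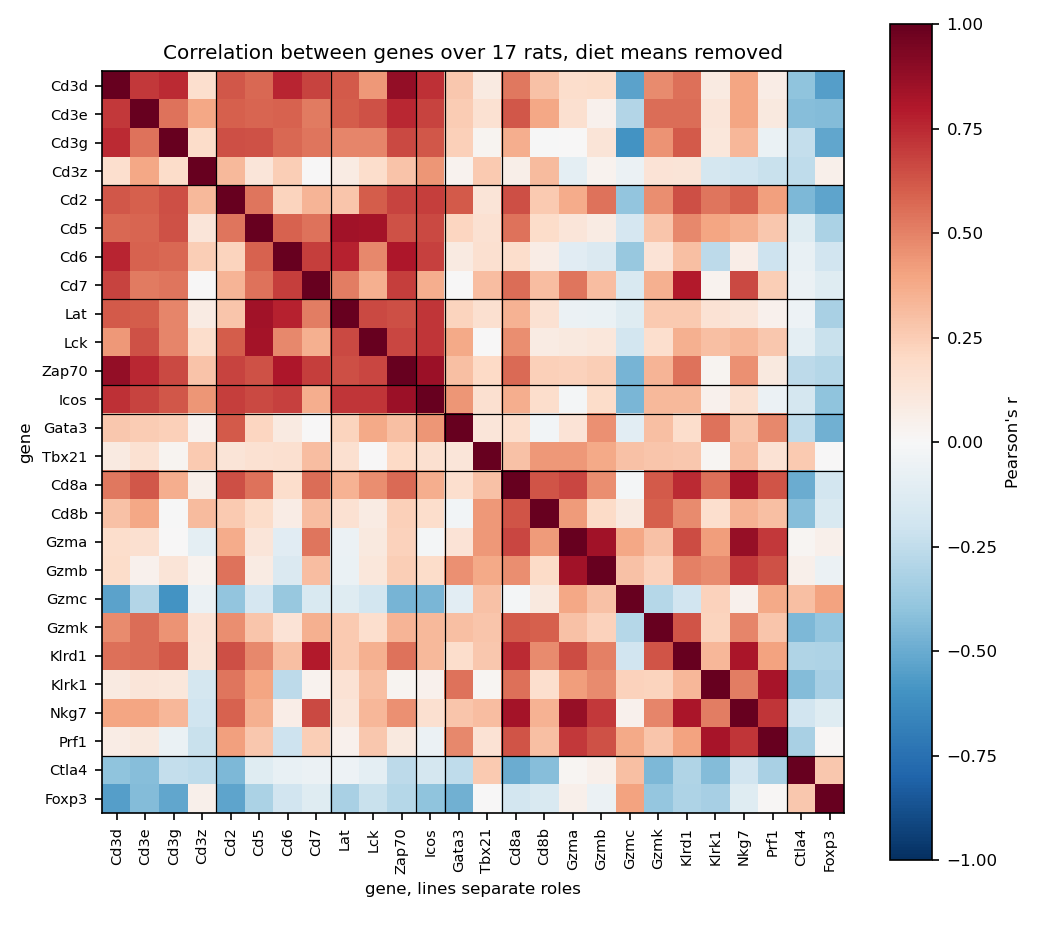
Pearson's r between each pair of the 26 tested genes over 17 rats with diet means removed, from -1 in blue to 1 in red, with lines between roles. Red blocks cover the receptor, surface and signalling genes and most of the cytotoxic genes. Pairs within the first group run from 0.0034 to 0.88, those of cytotoxic genes from -0.28 to 0.87, and those between the groups from -0.59 to 0.79. Foxp3, Ctla4 and Gzmc show blue with Cd3d, Cd3e and Cd3g.

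Beyond the named genes, the 10 with a name whose log2 ratio most resembled the mean of the CD3 chains, Lck, Cd2, Cd5 and Cd6 over the 17 rats, with diet means removed from both, were Rragd (r of 0.92), Gimap5 (0.89), Ptpn22 (0.88), Stat4 (0.88), Tcrb (0.87), Pea15 (0.86), Arhgdib (0.85), Prkar2b (0.84), Myo1g (0.84) and Apoc3 (0.83). Tcrb is the T cell receptor beta chain, Ptpn22 a phosphatase that damps the receptor's signal, Stat4 a transcription factor downstream of interleukin-12, and Gimap5 a protein needed for lymphocyte survival. Apoc3 is an apolipoprotein of liver and gut. Their diet differences ran from -0.029 for Myo1g to -0.16 for Tcrb, and none passed an adjusted p under 0.05. Correlations were ranked over all tested probes with values in every rat and are a description.

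Other genes of T and NK cell biology, 88 tested from 5 lists, had 0 past an adjusted p under 0.05 by limma and 18 past an unadjusted one, 6 higher and 12 lower at high calcium, which is 20.5% beside 9.84% of all genes. Their median difference was -0.046. With median centring in place of loess 1 was higher and 7 lower, and without rat 18 there were 10 in all. Of 18 homing and fate genes 3 were lower and 0 higher at an unadjusted p under 0.05, beside 5.23% and 4.61% of all genes tested. Cxcr4, a chemokine receptor of many leukocytes, differed by -0.27 ± 0.074 (SE, unadjusted p of 0.0018, adjusted 0.18), Ccr6 by -0.24 ± 0.10 and Ccr2 by -0.14 ± 0.065. Runx3 did not pass, at 0.094 ± 0.058. Of 23 receptor signalling genes 2 were higher and 1 lower, beside the same shares, which is 13.0% in all and near the 9.84% of all genes. The adaptor Sh2d2a differed by 0.11 ± 0.049, the ubiquitin ligase Cblb by 0.11 ± 0.049 and the adaptor Sla by -0.15 ± 0.061, while Txk (-0.083 ± 0.050) and Bcl10 (0.092 ± 0.056) did not pass.

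Of 22 NK and effector genes 2 were higher and 4 lower at an unadjusted p under 0.05, beside 4.61% and 5.23% of all genes tested. The same shares apply to the cytokine and checkpoint counts below. Gzmm, granzyme M of NK cells, differed by 0.26 ± 0.10 (SE, unadjusted p of 0.012), with means of 0.13 ± 0.24 (SD) at high and -0.13 ± 0.20 at low calcium. Cd48, a ligand of CD2 and CD244 found on most leukocytes, differed by -0.41 ± 0.12 (unadjusted p of 0.0026, adjusted 0.20), Fcgr3 by -0.43 ± 0.15, Fcgr3a by -0.23 ± 0.086 and Tyrobp by -0.21 ± 0.078; the last 3 serve both NK cells and macrophages. Alternatives were run for the 26 T and NK cell genes and for 25 pathway genes. Fcgr3 alone passed the adjusted threshold in any of them. Its adjusted p by limma was 0.047 without rat 3 and 0.041 without slide 1, and all its alternatives ran from 0.041 to 0.63. Other tested probes exist for Fcgr3, Cxcr4, Tyrobp, Entpd1 and Havcr2, and their separate values are not given here. Of 16 cytokine genes 2 were higher, Il2rg (0.14 ± 0.060) and Il18r1 (0.11 ± 0.050), and 2 lower, Il7r (-0.18 ± 0.067) and Stat4 (-0.13 ± 0.061), while Cd40lg (-0.14 ± 0.068) did not pass. The Cd40lg probe lay well above background in only 3 high but 8 low calcium rats, so it was tested mainly through the low calcium rats. Its difference ran from -0.73 to -0.092 over the other settings that tested it. Il18r1 turned to -0.0051 with the Cy5 channel alone. Of 10 checkpoint and regulatory genes 2 were lower, Entpd1 (-0.14 ± 0.061) and Tgfb1 (-0.097 ± 0.045), and Tnfrsf1b (-0.21 ± 0.10), Havcr2 (-0.072 ± 0.049) and Nt5e (-0.17 ± 0.13) did not pass. Several of these unadjusted calls were lost when 1 rat was left out: of 17 such fits, Tgfb1 stayed under 0.05 in 4, Stat4 and Il18r1 in 6, Ccr2 in 7, Cblb in 8, Entpd1 in 9, Il2rg in 11, Sh2d2a in 12, Ccr6 in 13 and Sla in 16. Cxcr4, Cd48, Fcgr3, Fcgr3a, Tyrobp, Gzmm and Il7r stayed under it in all 17. Cytokines such as Il2, Il4, Il5 and Il21 were not well above background in enough rats to be tested.

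Several lists of markers of other cells also had many genes past an unadjusted p under 0.05, beside 4.61% of all genes tested that were higher and 5.23% that were lower. Of 9 tested fibroblast markers all 9 were lower at high calcium at an unadjusted p under 0.05, the mean of the list running from -0.75 to 0.21 at high and from -0.12 to 0.51 at low calcium. Of 11 macrophage markers 5 were lower, Trem2 by 0.95 ± 0.21 (SE) and Cd68 by 0.33 ± 0.092 on the log2 scale among them, with list means from -0.59 to -0.0024 and from -0.13 to 0.31. Of 10 neutrophil markers 6 were lower and of 7 endothelial markers 4, with list means from -0.54 to 0.22 against -0.26 to 0.49 and from -0.31 to 0.075 against -0.15 to 0.14. Of 10 epithelial markers 2 were higher, the goblet cell genes Muc2 (0.27 ± 0.074) and Tff3 (0.29 ± 0.087), with list means from -0.18 to 0.48 and from -0.35 to 0.17. Of 11 B and plasma cell markers 1 was lower, and list means ran from -0.30 to 0.18 at high and from -0.38 to 0.21 at low calcium; Irf4 was not tested for the same reason. Of 8 mast cell and eosinophil markers 1 was higher and of 6 lymphoid tissue markers 1, the vessel adhesion molecule Madcam1, was lower (-0.38 ± 0.11); of 6 smooth muscle markers 1 was higher and 1 lower, and of 4 dendritic cell markers 0 passed. No marker passed an adjusted p under 0.05. The part of these shifts in the values of the T and NK cell genes was not tested.

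**Figure D4:**
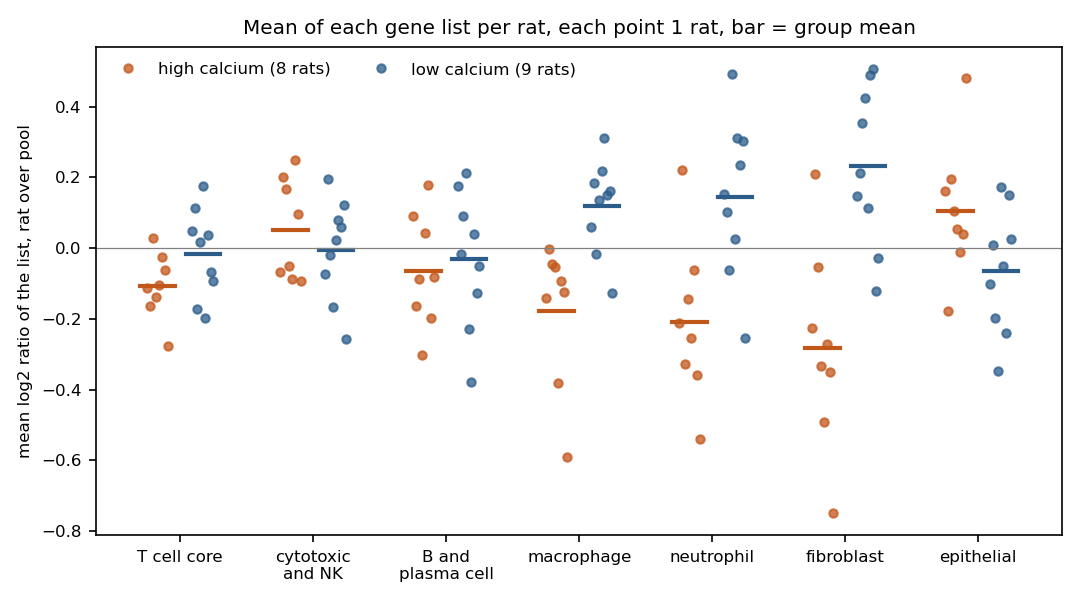
Mean log2 ratio of each rat over the tested genes of a list (vertical axis) for 7 lists (horizontal axis), high calcium in orange and low calcium in blue, points for rats and bars for group means; the T cell core is the CD3 chains, Lck, Cd2, Cd5 and Cd6. Means of the T cell core run from -0.28 to 0.027 at high and from -0.20 to 0.17 at low calcium, and those of the macrophage list from -0.59 to -0.0024 and from -0.13 to 0.31.

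By role, the T cell core averaged -0.11 ± 0.092 (SD over 8 rats) on high calcium against -0.016 ± 0.13 (SD over 9 rats) on low calcium, and that of the cytotoxic genes was 0.052 ± 0.14 and -0.0047 ± 0.14. On the 4 slides with both diets the core differed by -0.15, 0.022, -0.054 and -0.15, and the cytotoxic mean by 0.098, 0.15, 0.031 and -0.089. The mean of all 26 genes was -0.017 ± 0.083 and -0.011 ± 0.092, so these averages of the 2 diets lay within the spread between rats. That mean pools roles whose differences went in opposite directions.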

How the data were processed

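Colon scrapings of 17 rats were hybridised to 1 two-colour Agilent array each. The deposited scanner files hold spot intensities, which per the file headers come from version 9.5.1.1 of Agilent Feature Extraction (9.5 in the submitters' processing notes). The deposited series matrix holds log2 values, with no account of how the authors made them in the sources used here; they served as an alternative only.

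From the intensities, spots whose local background exceeded 2 times the array's median (90 in all, up to 37 on 1 array) were set to missing, since fitting normexp with them left rats 8, 11 and 16, all low calcium, with log2 ratios spread by 0.011 to 0.046 (MAD) against 0.13 to 0.18 in the other rats. Background was then corrected by normexp with an offset of 50, arrays were normalised by loess, and control and flagged spots were left out (limma 3.58.1, R 4.3.3), which brought the spread of all arrays to between 0.14 and 0.18. Spots of a probe were averaged, taking 43379 spots to 41012 probes, of which 27101 were tested because Cy5 was well above background on 8 or more arrays. The brightest tested probe stood for a gene. Gzmb departed from that rule after its annotation was seen: the probe whose accession RefSeq names Gzmb was used. Loess sets each array to its own centre, which hides any shift common to most genes.

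Diets were compared with lmFit and eBayes, two-sided, without covariates, and Benjamini-Hochberg adjustment over all probes at 0.05; confidence intervals are at a level of 0.95. Samples were separate rats, housed singly. Correlations used 100000 permutations under Python 3.11.15; their p-values were added to a plan that had none. The fit and the permutation tests were tested on simulated data. The rule for named genes was every gene of the list with a probe, the 5 smallest unadjusted p of each pathway list where none passed, and the 10 genes most like the T cell core, leaving out accessions and uncharacterised loci; some genes that the rule names are not reported here. The genes, lists and rules were chosen with earlier results of these data known. Promoters come from RefSeq on GRCr8; array coordinates are those of the array design on rn3.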

Additional observations from a re-analysis of the deposited data

How the results depend on the processing

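No T or NK cell gene passed an adjusted p under 0.05 under the 33 alternatives run, 17 of which left out 1 rat; 16 of the 26 genes kept their sign throughout and 10 did not, and of the 25 named pathway genes 24 did. Counts at an unadjusted p under 0.05 were less stable: 3 T and NK cell genes with median centring and 3 with slide as a block, against 6, and 3 to 8 when 1 rat was left out; 8, 11 and 11 pathway genes with median centring, the Cy5 channel alone and slide as a block, against 18, and 10 (without rat 18) to 19 when 1 rat was left out. Over all probes the count past the adjusted threshold, 0 with 2602 past an unadjusted p under 0.05, was 87 with array weights and 187 without slide 1, and 0 to 274 when 1 rat was left out (274 without rat 3 and 73 without rat 16). Fitting normexp on all spots, chosen like the alternatives without slide 1 and with the other Gzmb probe after seeing the data, gave 2383 probes and 5 T and NK cell genes at an unadjusted p under 0.05. The median difference ran from -0.024 to -0.0088 over the other settings and from -0.036 to 0.0066 without 1 rat, turning positive without low calcium rat 4.

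Signs turned for small differences; the cause was not tested. Foxp3 against Cd3e was -0.021 with offset 0, -0.10 with the scanner's processed signals and -0.024 to 0.053 without 1 rat; Prf1 against Cd3e was -0.0075 without slide 1 and -0.0076 to 0.072 without 1 rat. With the Cy5 channel alone Ctla4 was -0.060, Gzmk -0.023, Il18r1 -0.0051, Prf1 0.0012 and Zap70 0.030. Without slide 1 Cd6 was 0.060, Gzmk -0.030 and Lat 0.013, and with array weights Gzmk was -0.0076. Without background correction Gata3 was -0.032 and Klrk1 0.023, with the processed signals -0.26 and 0.010, and with the deposited log2 values -0.0066 and 0.013. Tbx21 was -0.015 with normexp on all spots. Without 1 rat Cd6 ran from -0.059 to 0.023, Gzmk from -0.037 to 0.075, Klrd1 from -0.0095 to 0.083, Klrk1 from -0.058 to 0.00093, Lat from -0.050 to 0.011, Prf1 from -0.065 to 0.017, Tbx21 from -0.0077 to 0.026 and Zap70 from -0.066 to 0.00027. No paired analysis was possible because the diets share no replicate numbers. Cd8a against Cd4 was not run, and signal near background limits Cd4, Cd28 and Ubash3a. It also limits Gata3 and the pathway gene Cd40lg, which were tested.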
